A study of Arabidopsis thaliana with 6 samples.

Results

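The genes described here are 8 regulators of embryo maturation in Arabidopsis thaliana: LEC1 (AT1G21970), L1L (AT5G47670), LEC2 (AT1G28300), FUS3 (AT3G26790), ABI3 (AT3G24650), BBM (AT5G17430), VAL1 (AT2G30470) and VAL2 (AT4G32010). They were chosen by locus code, and all 8 were found among the 29030 loci on the array, read by 10 probes. FUS3 and ABI3 had 2 probes each and the other genes 1. Total RNA came from whole fertilised flowers at stage 15 of wild-type plants and of atnaod, a mutant marked T-DNA in the labels, with 3 independent biological replicates of each genotype and 1 array per replicate. Each replicate pooled about 100 flowers from 17 to 20 plants grown at 25 °C in 16 h of light and 8 h of dark. No strain, allele or second mutant line was named in the labels. AtNAOD (AT4G17830) is the gene of N-acetylornithine deacetylase, which makes ornithine.

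LEC1 and L1L are NF-YB-type subunits of the trimeric CCAAT-binding factor NF-Y. LEC2, FUS3 and ABI3 carry a B3 DNA-binding domain that recognises the RY element, and together with LEC1 they switch on storage protein and oil genes in the developing seed. BBM, an AP2-type factor, acts early in the embryo and can induce embryos on vegetative tissue when overproduced. VAL1 and VAL2 are B3 proteins that repress the maturation program through Polycomb-type silencing after the seed germinates. In the flower shortly after fertilisation the young embryo is a small share of the tissue, surrounded by endosperm, seed coat, fruit wall and other floral organs.

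AtNAOD was checked first. Values are given as the log2 of the intensity relative to the 75th percentile of its array. On this scale AtNAOD stood at 1.77, 1.62 and 1.69 in wild type 1 to 3. On none of the 3 atnaod arrays was its probe well above background, and against the lowest signal that counted as detected it was at least 369-fold lower (limma adjusted p = 4.26e-07). Where that probe lies relative to the T-DNA was not analysed here. Between 73.2% and 79.2% of probes were well above background on an array, and the 75th percentile of processed intensity ranged from 1318 to 3007. The first slide carried samples 1 and 2 of each genotype, and the second carried sample 3 of each. Of 24458 genes tested, 1414 passed an adjusted p of 0.05, a background of 5.78%, with 2.72% higher and 3.06% lower in atnaod. The genotypes did not overlap in 32.2% of tested genes, with atnaod below in 17%. An unadjusted p under 0.05 was reached by 25.8% of tested genes. The median difference over all tested genes was -0.0069, and 51.2% lay below 0.

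The repressors VAL1 and VAL2 were measured far above background, and the activators close to it or not at all. Of the 60 probe readings of these genes (10 probes on 6 arrays), 33 were marked by the scanner software as well above background. VAL1 and VAL2 gave spot signals between 9.23 and 39.0 times the median of the array's 153 negative control spots, above background on all arrays. LEC1 lay between 1.78 and 4.22 times the negative controls and FUS3 probe 1 between 1.82 and 4.17 times, also above background on all arrays. These ratios describe how well each spot was measured. Different probes differ in brightness, so they do not rank the transcripts. LEC2 and BBM were not well above background on any array, with ratios of 1.09 to 1.38 for LEC2 and 1.18 to 1.57 for BBM, and nor was ABI3 probe 2. L1L was above background on wild type 2 alone. ABI3 probe 1 was above background on 2 of 3 arrays of each genotype.

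**Figure D1:**
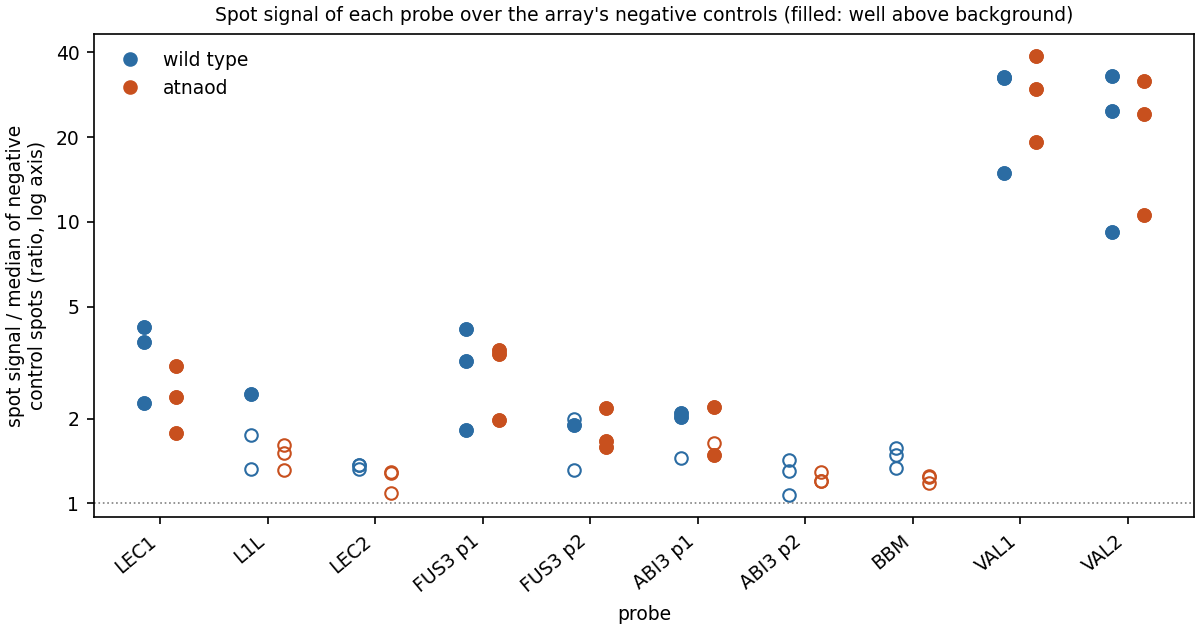
Spot signal of each of the 10 probes divided by the median of the array's negative control spots (ratio, log axis), 1 point per array, with p1 and p2 for a gene's probes, wild type in blue, atnaod in orange and filled points well above background. VAL1 and VAL2 lie between 9.23 and 39.0, LEC1 between 1.78 and 4.22, and LEC2 and BBM have no filled point.

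The signal filter, which required detection in all 3 samples of wild type or of atnaod, left 4 of the 8 genes for testing: LEC1, FUS3, VAL1 and VAL2. Of these 4, 1 was called, LEC1, lower in atnaod, against the background of 5.78% called and 3.06% called lower. FUS3, VAL1 and VAL2 did not pass. At probe level 5 of the 10 probes were tested, and LEC1 was again the 1 called (limma adjusted p = 0.0307), where 3.84% of all probes were called.

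LEC1 was lower in every atnaod sample than in every wild-type sample. It stood at -4.85, -4.91 and -4.65 in wild type 1, 2 and 3. In atnaod 1, 2 and 3 it stood at -5.54, -5.45 and -5.44. The groups did not overlap, as in 32.2% of all tested genes (17% with atnaod below). The gap between the groups was wider than the spread within either (SD 0.14 in wild type and 0.058 in atnaod, n = 3 each). LEC1 fell by 0.68 on the log2 scale (95% interval -0.91 to -0.44, SE 0.0998, limma adjusted p = 0.0259), to 62.6% of the wild-type level with an interval of 53.2% to 73.7%. It ranked 241 by p among the 24458 genes. The difference was -0.62 on the first slide (2 arrays against 2) and -0.79 on the second (1 against 1). Before scaling, the processed intensities of wild type 1 to 3 were 104.5, 87.1 and 52.5, those of atnaod 41.9, 65.2 and 31.2. The scanner software's own error on these 6 readings was 11.2% to 13.3% of the signal. In whole flowers, fewer cells of a type and less RNA per cell cannot be told apart.

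**Figure D2:**
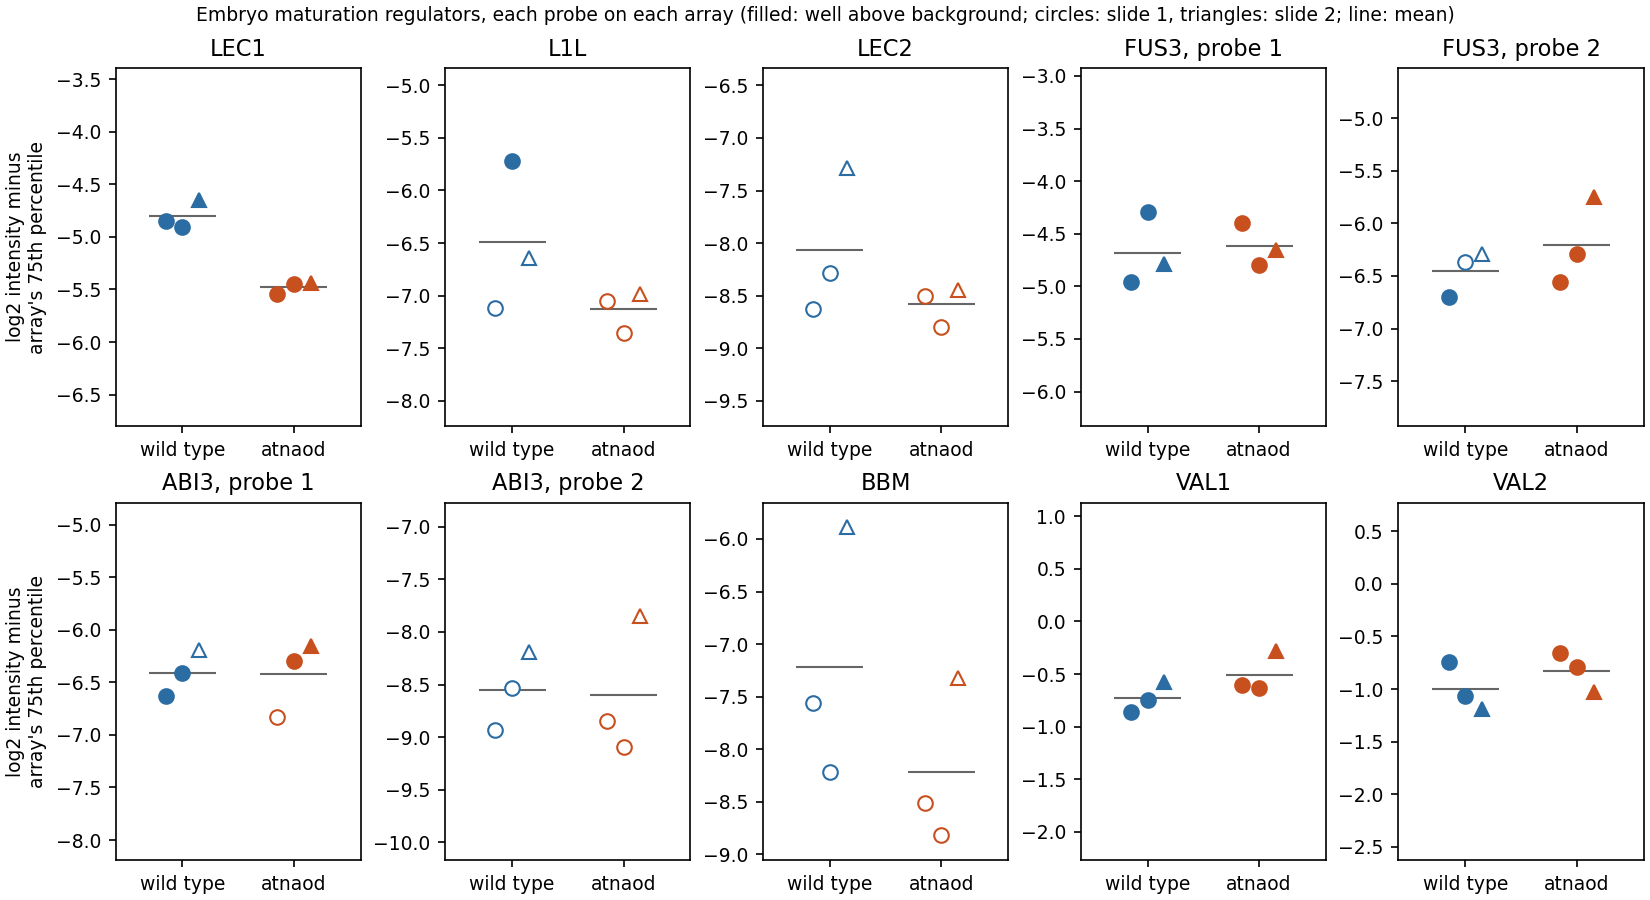
Log2 intensity relative to the 75th percentile of the array for each probe of the 8 genes, 1 point per array, with the genotype on the horizontal axis and the same span of values in every panel (circles slide 1, triangles slide 2, filled points well above background, line the mean of 3). LEC1 is the 1 tested gene of the 8 whose groups do not overlap, at -4.91 to -4.65 against -5.54 to -5.44. Over all tested genes the groups do not overlap in 32.2%.

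The size of the LEC1 fall depended on how the faint signal was corrected, and its call depended on this and on single samples. In the deposited values, which carry no background subtraction, LEC1 stood at 132.9, 128.6 and 205.5 in wild type, against 104.0, 97.5 and 153.8 in atnaod. Atnaod 3 thus lay above wild type 1 and 2, but on each slide every atnaod value was below every wild-type value. The difference on that scale was -0.39 (95% interval -0.97 to 0.19, limma adjusted p = 0.452), in a fit that called 0.0409% of all genes. With slide as a block, an alternative chosen after seeing the data, it was -0.39 (-0.58 to -0.20, adjusted p = 0.0309), with 8.94% of all genes called. The normexp background correction gave -0.35 (adjusted p = 0.419, 0.994% of genes called), and -0.35 with slide as a block (adjusted p = 0.0572, 7.94% called).

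Under other settings of the same values the size of the LEC1 fall moved little, while the call came and went with the share of all genes called. LEC1 was called under quantile normalization (adjusted p = 0.0214, 5.95% of all genes called), median centring (0.0244, 5.98%), detection required on all 6 arrays (0.0217, 6.73%) and the mean over a gene's probes (0.0267, 5.02%). It was also called with the trended and robust prior of limma (adjusted p = 0.0497, 9.24% of genes called), array weights (0.0088, 15.9%), the replicate number as a block (0.0397, 5.30%) and slide as a block (0.0239, 8.68%). It was not called with dim probes kept in the test (adjusted p = 0.104, 0.0644% of genes called) or on the first slide alone (0.157, 0.109%). Leaving out wild type 1 kept the call (-0.70, adjusted p = 0.0484, 2.32% of genes called), as did leaving out atnaod 1 (-0.64, 0.0348, 5.87%). The call was lost without wild type 2 (-0.73, adjusted p = 0.0901, 0.0815% of genes called), wild type 3 (-0.60, 0.0914, 0.0812%), atnaod 2 (-0.69, 0.110, 0.0569%) or atnaod 3 (-0.69, 0.0649, 0.558%).

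**Figure D3:**
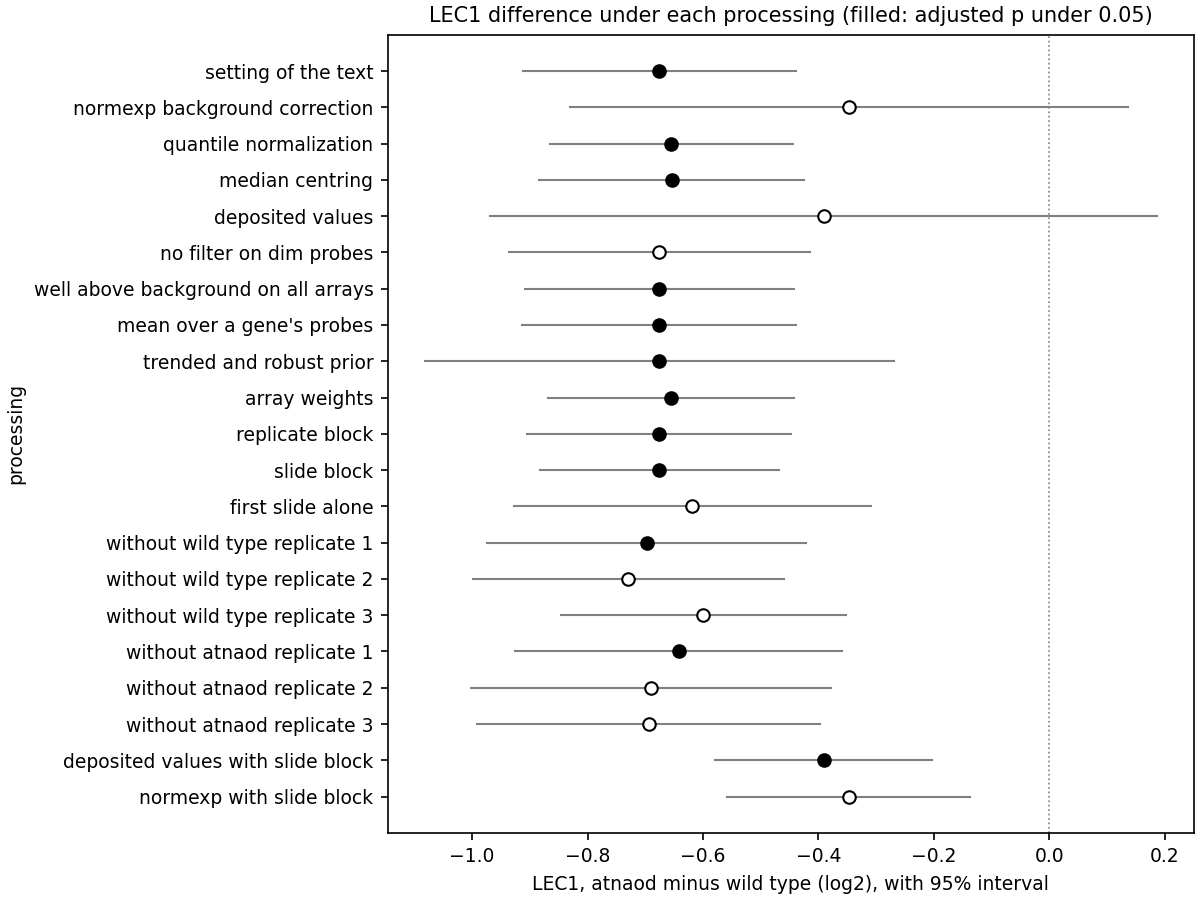
LEC1 difference, atnaod minus wild type on the log2 scale, with its 95% interval, under each processing, with filled points for an adjusted p under 0.05. All points lie below 0, between -0.73 and -0.35, and the intervals of the deposited values and of normexp without a slide block cross 0.

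L1L, the closest relative of LEC1, was too faint for a test. It stood at -7.11, -5.72 and -6.64 in wild type, against -7.05, -7.35 and -6.98 in atnaod. Wild type 2 alone was above background, and the genotypes overlapped, since wild type 1 lay below atnaod 1 and 3. The fitted difference with no filter on dim probes was -0.63 (95% interval -1.52 to 0.25, limma adjusted p = 0.347). Without wild type 2 the difference of means was -0.25, with normexp -0.15 and in the deposited values -0.17. The scanner software's error on the L1L readings was 18.0% to 38.8% of the signal.

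FUS3 did not differ between the genotypes beyond its spread. FUS3 directs embryo identity and represses gibberellin synthesis during maturation. Probe 1 read -4.96, -4.29 and -4.78 in wild type, against -4.40, -4.80 and -4.66 in atnaod, with the atnaod values inside the wild-type range. Its difference was 0.061 (95% interval -0.39 to 0.51, limma adjusted p = 0.873), and -0.13 with array weights. The interval runs from 76.3% to 142.5% of the wild-type level. Probe 2 read -6.70, -6.37 and -6.30 in wild type, against -6.56, -6.29 and -5.75 in atnaod. It was above background on 1 of 3 wild-type and 3 of 3 atnaod arrays, and its difference was 0.25 (-0.26 to 0.77, adjusted p over all probes = 0.528). In both FUS3 probes the genotypes overlapped.

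LEC1 was also set against each of the other tested regulators within each array. The log2 difference LEC1 minus FUS3 was 0.74 lower in atnaod than in wild type (-0.74). Against VAL1 the same measure moved by -0.90 and against VAL2 by -0.85. In all 3 comparisons the 3 atnaod values lay below the 3 wild-type values, and the exact two-sided permutation test gave p = 0.1 (0.1 after Benjamini-Hochberg adjustment over the 3), the smallest p that 3 against 3 samples can give. A p under 0.05 was therefore out of reach in this design. All 3 comparisons use the same LEC1 values, so they repeat the LEC1 fall, and no conclusion is drawn from them.

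ABI3, which relays abscisic acid signals to the genes of late maturation, LEC2 and BBM gave no testable signal. ABI3 probe 1 read -6.63, -6.41 and -6.19 in wild type, against -6.83, -6.29 and -6.16 in atnaod, a difference of -0.013 with groups that overlapped. LEC2, a direct activator of storage and auxin synthesis genes, read -8.63, -8.29 and -7.28 in wild type, against -8.50, -8.79 and -8.44 in atnaod. BBM read -7.56, -8.21 and -5.89 against -8.51, -8.82 and -7.32. The scanner error reached 99.7% of the signal for LEC2 and 99.9% for BBM. For both genes wild type 3 was the highest of the 6 arrays, and no reading was above background, so no fold is given. A difference in these genes was not detectable at this signal. In the fit with no filter on dim probes the adjusted p was 0.983 for ABI3, 0.441 for LEC2 and 0.443 for BBM.

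The repressors VAL1 and VAL2 stood slightly above wild type without a call. VAL1 read -0.86, -0.75 and -0.58 in wild type, against -0.60, -0.63 and -0.28 in atnaod. The groups overlapped, since wild type 3 lay above atnaod 1 and 2. Its difference was 0.22 (95% interval -0.08 to 0.53, limma adjusted p = 0.325), or 94.5% to 144.4% of the wild-type level. VAL2 read -0.74, -1.06 and -1.19 in wild type, against -0.66, -0.79 and -1.02 in atnaod, with each sample above the wild-type sample of the same number. Its difference was 0.17 (-0.18 to 0.53, adjusted p = 0.516). Slide 1 gave 0.19 for VAL1 and 0.18 for VAL2, and slide 2 gave 0.30 and 0.17.

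Of 20 other repressors of the program, among them VAL3, the chromatin remodeller gene PKL and genes of Polycomb complexes and histone deacetylases, all were tested and 0 were called with limma, against 5.78% of all genes. In this list 3 of 20 had an unadjusted p under 0.05, against 25.8% of all genes, and its median was 0.032. The lowest p belonged to PKR2, a relative of PKL that is known from the seed, at -0.85 (95% interval -1.42 to -0.27, limma adjusted p = 0.0870). Its call appeared with the replicate number as a block (adjusted p = 0.0429), slide as a block (0.0429), array weights (0.0292) and without atnaod 1 (0.0463). Normexp gave -0.33 (adjusted p = 0.423). Next was ASIL1, a trihelix repressor of maturation genes in seedlings, at 0.22 (adjusted p = 0.184).

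Partner subunits and close relatives showed no called difference. LEC1 and L1L work with NF-YA and NF-YC subunits, and 22 of 23 other NF-Y genes were tested. Of these, 0 were called with limma, against 5.78% of all genes, and 0 had an unadjusted p under 0.05, against 25.8%. In this list 11 lay below 0 and 11 above, with a median of -0.023. Their differences ranged from -0.36 to 0.24, and the lowest p values were those of NF-YA2 at 0.24 (adjusted p = 0.225) and NF-YC3 at 0.22 (adjusted p = 0.283). Of the 7 other members of the AIL/PLT family, to which BBM belongs, 3 could be tested and 0 were called, with 0 at an unadjusted p under 0.05. A list of 3 genes is too short to set against the same shares of all genes. AIL6, a regulator of flower growth, stood at 0.18 (adjusted p = 0.257) and AIL5 at 0.048 (adjusted p = 0.847).

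Genes that act with or downstream of the LEC1 group were mixed, and of the late maturation genes 2 were called lower. In a list of 17 storage protein, oleosin and late maturation genes 6 passed the signal filter, 2 were called lower and 0 higher, against 3.06% and 2.72% of all genes, and the median of the 6 was 0.045. The other 11, among them the genes of 2S albumins and cruciferins that dominate the maturing seed, did not pass the filter, and 5 of these 11 were never above background. Of the 2 called genes, EM6 passed the filter through wild type alone, so the filter favoured a lower value in atnaod. With detection required on all arrays 4 genes were tested, and OLEO3 was the 1 called.

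OLEO3 (AT5G51210), the gene of an oleosin that coats seed oil bodies, fell by 0.78 on the log2 scale (95% interval -0.99 to -0.58, limma adjusted p = 0.0199), to 58.1% of wild type. It read -3.14, -3.10 and -3.12 in wild type, against -3.82, -4.00 and -3.89 in atnaod, with tight groups that did not overlap, and ranked 46 by p among all genes. The fall was -0.79 on slide 1 and -0.77 on slide 2. Its call was lost without wild type 2 (adjusted p = 0.0898), wild type 3 (0.0858) or atnaod 2 (0.0962), and the deposited values gave -0.57 (adjusted p = 0.162, and 0.0206 with slide as a block).

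EM6 (AT2G40170), the gene of a late embryogenesis abundant protein and a target of ABI3 and ABI5 in the seed, fell by 1.30 (95% interval -1.85 to -0.74, limma adjusted p = 0.0347). It read -5.41, -4.54 and -4.75 in wild type, against -6.20, -6.43 and -5.96 in atnaod, where 1 of 3 arrays was above background. EM6 thus entered the test through wild type alone, and its size in atnaod rests mostly on readings at background. The deposited values gave -0.53 (adjusted p = 0.468) and normexp -0.45 (0.475). Without atnaod 1, atnaod 2, atnaod 3, wild type 2 or wild type 3 its adjusted p was 0.0545, 0.131, 0.0670, 0.115 and 0.110.

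The other tested genes of the same list were not called, and 3 of them stood above 0. The oleosin genes OLEO4 and OLEO2 were at 0.34 (limma adjusted p = 0.145) and 0.25 (0.428). FAE1, of very long chain fatty acid synthesis, was at 0.41 (adjusted p = 0.0892). For OLEO4 and FAE1 every atnaod value lay above every wild-type value. In this list 2 genes thus separated upward and 2 downward, where 32.2% of all tested genes separated in either direction. The cruciferin-type gene AT1G03890 was at -0.16.

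**Figure D4:**
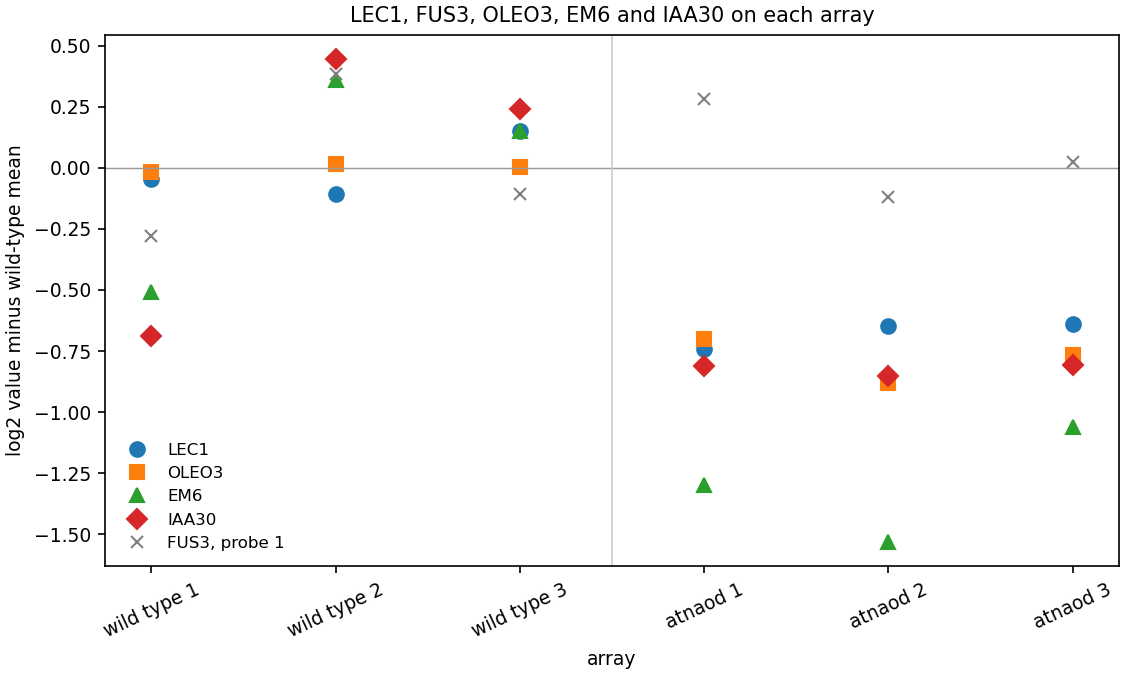
Log2 value minus the wild-type mean for LEC1, FUS3 (probe 1), OLEO3, EM6 and IAA30 on each of the 6 arrays, wild type left of the line and atnaod right of it. LEC1, OLEO3, EM6 and IAA30 lie below every wild-type value on all 3 atnaod arrays, as do 17% of all tested genes, while FUS3 lies within the wild-type range. EM6 and IAA30 passed the signal filter through wild type alone.

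Among 22 co-regulators 16 were tested and 0 were called with limma, with 2 of 16 at an unadjusted p under 0.05, against 25.8% of all genes, and a median of 0.059. ABI5, a bZIP factor of abscisic acid response, stood at 0.46 (95% interval 0.16 to 0.76, limma adjusted p = 0.0787) and was higher in 3 of 3 atnaod samples, at 0.673, 0.996 and 1.104 against 0.449, 0.403 and 0.529. It was called without atnaod 1 (adjusted p = 0.0313), with the trended prior (0.0413) and with array weights (0.0239). With slide as a block it was also called in the deposited values (0.0393) and with normexp (0.041). IAA30, an auxin response gene that LEC2 activates, stood at -0.82 (-1.47 to -0.17, adjusted p = 0.121). IAA30 read -6.42, -5.29 and -5.49 in wild type, against -6.54, -6.59 and -6.54 in atnaod, so that wild type 1 lay close to the mutant. In atnaod 2 of 3 arrays were above background, so IAA30 entered the test through wild type alone. WRI1, the activator of oil synthesis downstream of LEC1 and LEC2, was at 0.16 (adjusted p = 0.318). The bZIP67 and MYB118 genes were not above background on any array.

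All 9 oil synthesis genes were tested, and 0 were called with limma, with 4 of 9 at an unadjusted p under 0.05, against 25.8% of all genes, and a median of -0.10. The sucrose synthase gene SUS2 was at 0.55 (limma adjusted p = 0.0722), and passed with blocks of replicate number (0.0465) or slide (0.0296). The mean over its 2 probes gave 0.33 (0.141). MOD1, of fatty acid synthesis, was at -0.31 (adjusted p = 0.139).

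Genes of the early embryo did not move as 1 group. Of 19 patterning genes 13 were tested, 2 were called higher and 0 lower, against 2.72% and 3.06% of all genes, and the median was 0.037. STM, the shoot meristem regulator, rose by 0.64 (limma adjusted p = 0.0375) and YDA, a kinase gene of the first divisions of the zygote, by 0.59 (adjusted p = 0.0488), and both are also used outside the embryo. With the replicate number as a block YDA did not pass (adjusted p = 0.0612). Of the 6 fits without 1 sample, STM and YDA each lost their call in 5. They kept it without atnaod 1 (0.0333 and 0.0225). WOX2, an apical marker of the young embryo, read -5.39, -4.98 and -4.72 in wild type, against -5.17, -5.57 and -5.54 in atnaod, a difference of -0.40 (-0.85 to 0.06, adjusted p = 0.245). HDG12, of an epidermal homeodomain factor, stood at -0.33 (adjusted p = 0.156). RKD4 and SSP, which act in the zygote, were not above background on any array.

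Most markers of endosperm and seed coat lay lower in atnaod than in wild type. Of 12 endosperm markers 9 were tested, 1 was called lower, against 3.06% of all genes. In this list 8 of 9 lay below 0, against 51.2% of all genes, with a median of -0.56. One of these 8, AGL36 at -1.08, passed the filter through wild type alone, with 1 of 3 atnaod arrays above background. The filter thus favoured its direction. With detection required on all arrays 8 markers were tested and 1 was called. The called gene was CLE8, of a signalling peptide of embryo and endosperm, at -2.06 (limma adjusted p = 0.0283). Its call was lost in 5 of the 6 fits without 1 sample, and normexp gave -1.05 (adjusted p = 0.0526). MINI3 and EDE1 stood at -0.83 (adjusted p = 0.0909) and -0.54 (0.0806). The summed level of the 9, on the scale where the array's 75th percentile is 1, was 0.579 to 0.642 in wild type and 0.320 to 0.524 in atnaod. The endosperm markers PHE1 and IKU2 were not above background on any array. Relative to the wild-type mean the median of the 9 ran from -0.14 to -0.73 over the atnaod samples.

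All 8 seed coat markers were tested, 5 were called lower and 1 higher, against 3.06% and 2.72% of all genes, and the median was -0.82. With the replicate number or slide as a block all 8 were called, GL2 and TT12 being added. TT2, TT8, STK and BAN were at -1.02, -0.65, -0.73 and -1.06, and MUM4, of mucilage synthesis, rose by 0.59 (limma adjusted p = 0.0362). The summed level was 17.6 to 19.3 in wild type and 11.2 to 14.3 in atnaod. Of the 6 fits without 1 sample, TT2, TT8, STK, BAN and MUM4 each lost their call in 5. Pollen markers were on the other side of 0: 8 of 10 were tested, and all 8 lay above 0 with a median of 0.25. Over all genes 51.2% lay below 0. Of the 8 pollen markers 0 were called with limma, against 5.78% of all genes. VEX1 was the 1 with an unadjusted p under 0.05, against 25.8% of all genes. VEX1 was at 0.77 (adjusted p = 0.0669), with 1 of 3 wild-type and 3 of 3 atnaod arrays above background. It thus passed the filter through atnaod alone, and the filter favoured its direction. Normexp gave 0.23 for VEX1 (adjusted p = 0.661). With detection required on all arrays 7 pollen markers were tested and 0 were called. ANX2 was at 0.49 (adjusted p = 0.234). The summed level of the 8 pollen markers was 9.13 to 11.1 in wild type and 8.12 to 15.8 in atnaod. Most of this sum came from 1 bright gene, VGD1, at 0.18 (limma adjusted p = 0.696). Relative to the wild-type mean the median of the 8 was -0.053, 0.37 and 0.64 in atnaod 1, 2 and 3, so atnaod 1 did not share the rise. The part of endosperm, seed coat and pollen in the results on LEC1, OLEO3 and EM6 was not tested.

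**Figure D5:**
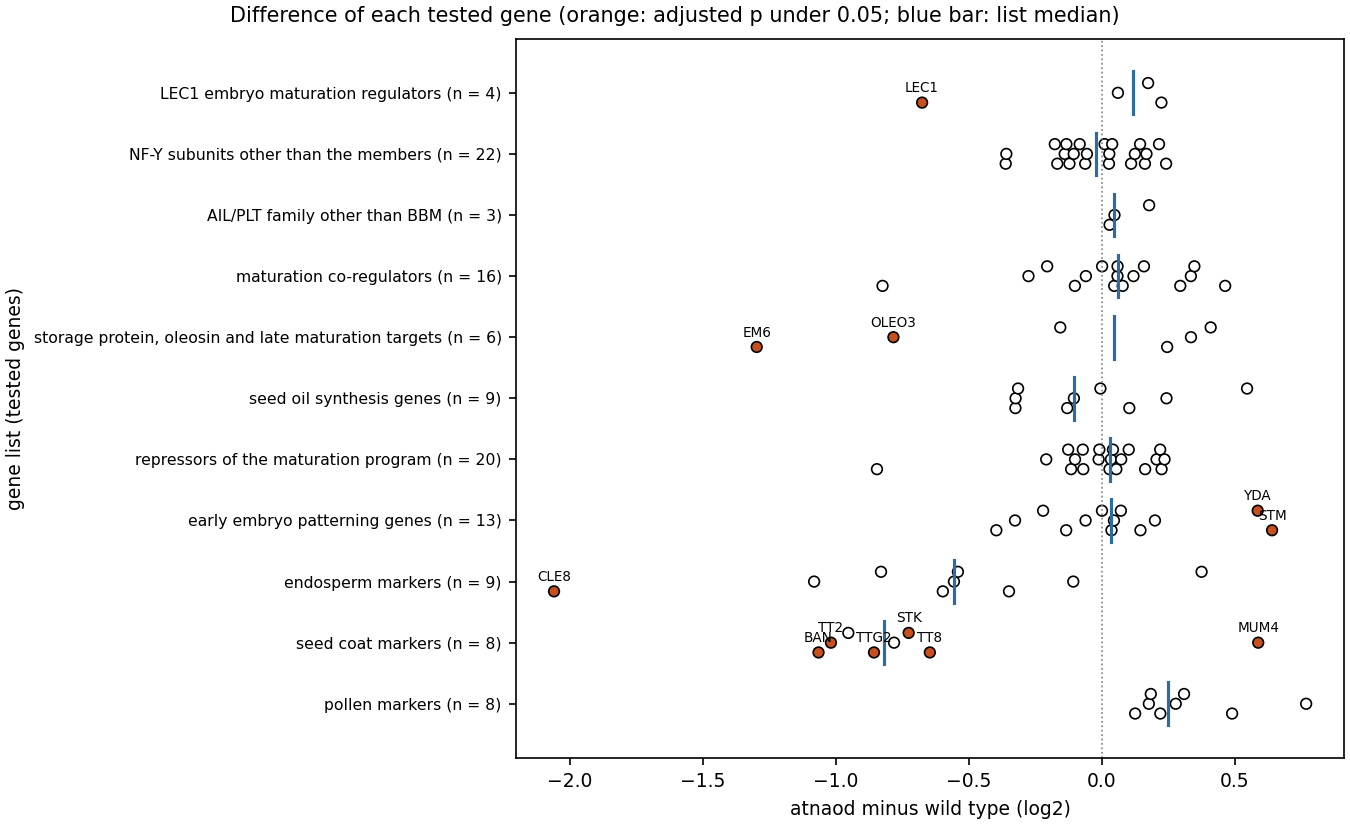
Difference between atnaod and wild type (log2) of every tested gene, 1 row per gene list, with called genes in orange and named, and the list's median as a blue bar. LEC1 stands at -0.68 apart from FUS3, VAL1 and VAL2 at 0.061 to 0.22, the endosperm and seed coat medians are -0.56 and -0.82, and the NF-Y median is -0.023.

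The genes whose values over the 6 arrays were most like those of LEC1 were sought among 21961 other tested loci, by the root-mean-square difference after centring each gene on its own mean. PGP10 (AT1G10680), of an ABC transporter, was nearest at 0.0423, followed by PRIN2 (AT1G10522), of a plastid protein, at 0.0667, and AT1G62333 at 0.0672. GH9B9 (AT2G44540), of a glycosyl hydrolase, was at 0.0722 and AT3G19508 at 0.0758. FUS3, VAL1 and VAL2 were at 0.467, 0.463 and 0.484 from LEC1. PGP10 read -4.80, -4.78 and -4.64 in wild type, against -5.43, -5.37 and -5.33 in atnaod. All 5 nearest genes were themselves called lower in atnaod, by 0.58 to 0.69, and a like difference is part of what the measure selects.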

How the data were processed

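Each of the 6 samples was labelled with Cy3 from 200 ng of RNA and hybridised to 1 single-colour Agilent array, per the labels. Per the file headers, the deposited scanner files hold intensity from version 10.5.1.1 of Agilent's Feature Extraction software (10.5 in the submitters' processing notes), background-subtracted and detrended within the array. The deposited value table holds linear intensity too: each value equalled the array's median pixel signal multiplied by a single factor, with no background removed.

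The log2 of processed intensity minus the array's 75th percentile was used, without the 2 to 35 spots per array flagged as outliers, and with spots of a probe averaged. No spot was saturated. A probe was tested if well above background on all arrays of 1 genotype (32497 of 43603 probes), and a gene was its brightest tested probe. The genotypes were tested gene by gene in limma (version 3.58.1, R 4.3.3), two-sided, with Benjamini-Hochberg adjustment over all 24458 genes, a threshold of 0.05 and 95% intervals. The number of arrays limits the precision. The fit was tested on simulated data.

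Loci were read from the array's annotation, and all 155 listed loci were found in the RefSeq table (TAIR10.1). The headers name another build, so no coordinates are given. Sequences and promoter motifs were not analysed here. The members, the gene lists and the rule for named genes (all 8 members, called genes of each list up to 4 per direction, otherwise the 2 of lowest p, and the 5 genes most like LEC1) were chosen with earlier results of these data known. OLEO2, OLEO4, FAE1, WRI1, WOX2, HDG12, MINI3, EDE1, GL2, TT12 and the genes named as undetected or detected on few arrays were named after their values were seen.

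The replicate numbers come from the labels. After each genotype's mean was removed, wild type and atnaod samples of number 1 correlated over genes at 0.190, those of number 2 at 0.111 and those of number 3 at 0.535. Unlike numbers gave 0.215 and 0.105 on the first slide, and -0.354 to -0.19 across slides. The correlations thus followed the slide, and on the first slide they did not single out samples of the same number. Blocks of replicate number and of slide were used as alternatives only, and the main values come from the fit without a block. Calls that changed with a block are named or counted, and not every blocked value is given. Alternatives were normexp (offset 50) on the median spot signal, quantile normalization, median centring, the deposited values, other filters, the mean over probes, another prior, array weights, blocks, the first slide alone and leaving out each sample. The deposited and normexp values with slide as a block were chosen after seeing the data.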

Additional observations from a re-analysis of the deposited data

How the results depend on the processing

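LEC1 stayed below 0 in all 20 alternatives. It kept its call under quantile normalization, median centring, the all-array filter, the mean over probes, the trended prior, array weights, slide as a block, the replicate block (-0.68, adjusted p = 0.0397), the deposited values with slide as a block, and without wild type 1 or atnaod 1. It lost it with normexp (-0.35, also with slide as a block), the deposited values (-0.39), dim probes kept (-0.68) and the first slide alone (-0.62), and in those 5 settings 0 of the 8 regulators were called. Without 1 sample LEC1 ranged from -0.73 to -0.60 and the count of called regulators from 0 to 1. FUS3 turned below 0 with array weights (-0.13), and ranged from -0.079 to 0.25 without 1 sample. AIL5 ranged from -0.077 to 0.13. The cause of these changes was not tested.

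The count of all called genes was 243 with normexp, 10 with the deposited values, 22 with no filter, 2259 with the trended and robust prior, 3896 with array weights, 2123 with slide as a block, 27 on the first slide alone and 2186 with the deposited values and slide as a block, and 14 to 1466 without 1 sample. Normexp, the deposited values, no filter and the first slide alone each called 0 late maturation, 0 early embryo and 0 endosperm genes. They called 1 seed coat gene with normexp and 0 otherwise. The late maturation count was 1 with the all-array filter and with normexp or the deposited values with slide as a block. The early embryo count was 1 with the mean over probes and the replicate block. The co-regulator count was 1 with the trended prior and both added settings, and 2 with array weights. The oil synthesis count was 1 with array weights, the replicate block, slide as a block and both added settings, and the count of other repressors was 1 with the first 3 of these. Endosperm calls were 4 with array weights and 2 with slide as a block and both added settings, and pollen calls 1 with array weights. Without 1 sample the counts ranged from 0 to 2 for late maturation and early embryo genes, 0 to 4 for endosperm, 0 to 6 for seed coat and 0 to 1 for pollen, co-regulators and other repressors. They were 0 for NF-Y, AIL/PLT and oil synthesis genes. The replicate block changed the calls of YDA, SUS2 and PKR2, added GL2 and TT12 to the seed coat calls (8 in all) and changed no other call among the genes named by rule. Signal over background limits every statement on LEC2, BBM, L1L and ABI3.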

Other observations

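Several maturation and early embryo genes that failed the signal filter were above background on some arrays. EM1, a relative of EM6, and the cruciferin gene CRC were above background on 0 of 3 wild-type and 2 of 3 atnaod arrays, and so was AIL1. CRA1 was above background on 1 wild-type and 2 atnaod arrays, and SESA2 on 2 and 1. PER1, of a seed peroxiredoxin, was above background on 1 wild-type array and on 0 atnaod arrays. The embryo gene WOX8 was above background on 2 of 3 arrays of each genotype. For genes with more than 1 probe, among them CRA1 with 3, each count is the highest of any probe, taken in each genotype separately. The share of all probes well above background also differed by array. It was 76.2%, 74.3% and 73.2% on wild type 1 to 3 and 75.6%, 77.1% and 79.2% on atnaod 1 to 3. The counts are thus no measure of a difference between the genotypes, and these detections were not tested.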
